A study of Homo sapiens with 18 samples.

Results

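Beta-endorphin, the endogenous opioid peptide agonist, was compared with naloxone, the opioid receptor antagonist, in 6 of the 18 RNA sequencing libraries of the series: 3 libraries of cells given beta-endorphin at 200 nM and 3 of cells given naloxone at 200 nM, each for 15 min. The libraries were chosen by their treatment labels and set in pairs by the code in their library names, called A (also replicate 1), B (replicate 2) and C (replicate 3) here, and all genes entered the comparison. The cells were SH-SY5Y, an established human neuroblastoma line of wild type genotype, and both groups had first been kept for 7 days in retinoic acid (ATRA, 10 µM), which gives a neuron-like state. The other groups of the fit, Control (water), Morphine (193 nM) and Metamorphine (169 nM), were differentiated in the same way and treated for the same 15 min. The comparison sets an agonist against an antagonist directly, without the water libraries as the reference. A single cell line stands for neurons here, and the labels do not say whether the libraries of 1 group came from separate cultures, so a p-value reflects the spread among the libraries, part or all of which may be technical.

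Beta-endorphin is cut from the precursor POMC and activates the mu and delta opioid receptors. These receptors signal through inhibitory G proteins, which lower adenylyl cyclase activity, open inwardly rectifying potassium channels, close voltage-gated calcium channels and feed into the MAP kinase cascade, whose fastest transcriptional targets are immediate early genes such as EGR1 and FOS. Naloxone occupies the same receptors without activating them.

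Total counts were 22391264 to 27800101 in the beta-endorphin libraries and 25343902 to 29350510 in the naloxone libraries. Levels are given as CPM, the count as a share of the library total on the field's usual scale, after scaling by TMM (trimmed mean of M-values), and every fold change is beta-endorphin relative to naloxone on the log2 scale, so that a positive value is higher with beta-endorphin. Genes of noradrenergic identity were abundant in all 6 libraries: the transcription factor PHOX2A ran from 1398 to 1525 CPM and the noradrenaline-making enzyme DBH from 1119 to 2196 CPM, with the neuronal tubulin TUBB3 at 458 to 782 CPM. Tyrosine hydroxylase (TH), the enzyme at the head of catecholamine synthesis, had 9 reads or fewer in each library. Marker genes of blood and immune cells summed to 11.8 to 14.2 CPM with beta-endorphin and 10.5 to 14.6 CPM with naloxone. Fewer cells expressing a gene and less RNA per cell cannot be told apart in these bulk libraries.

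The library code set the 6 libraries further apart than the ligand did. Over the 12008 genes that averaged 10 CPM or more, the root-mean-square log2 difference between the beta-endorphin and the naloxone library of a code was 0.201 in A, 0.119 in B and 0.219 in C, whereas libraries of the same ligand with different codes stood 0.327 to 0.738 apart. The beta-endorphin and naloxone libraries of code B sat almost on each other in the plot of principal components. Control 1 lay far from the other libraries, and the fit without it tested 23400 genes and also called 0.

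**Figure D1:**
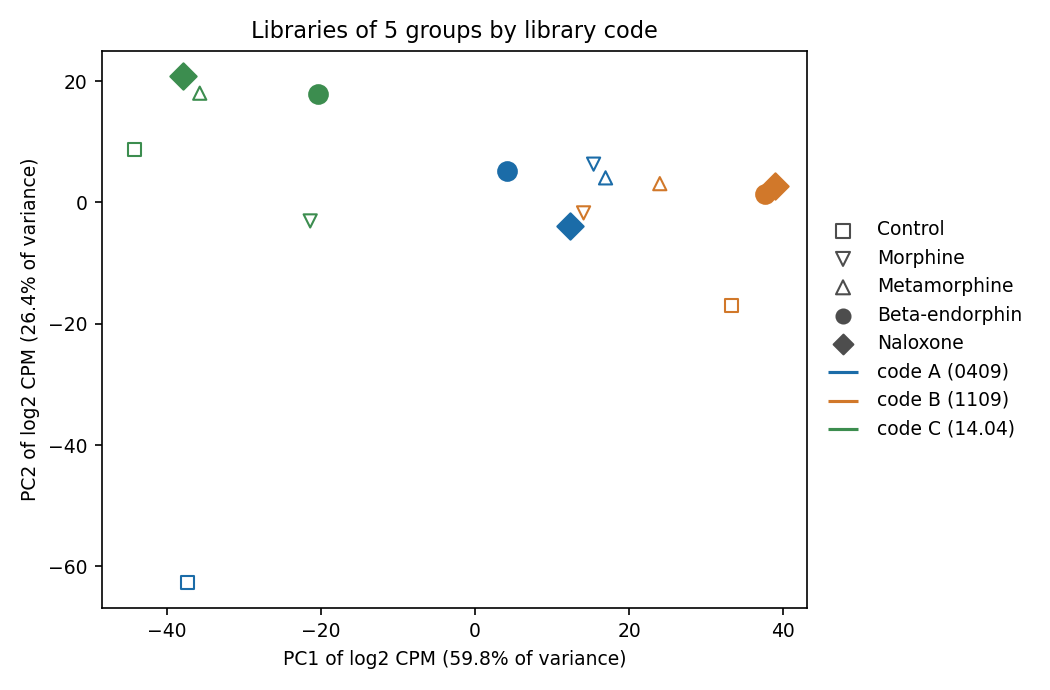
First and second principal components of log2 CPM over 12008 genes (59.8% and 26.4% of the variance) for the 15 libraries of the fit, with symbols for groups and colours for library codes. The beta-endorphin and naloxone libraries of a code lie near each other, and those of code B nearly coincide.

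No gene passed the test. Of 22922 genes tested with edgeR's quasi-likelihood test, with the library code as a block and the 5 groups in 1 fit, 0 were higher and 0 were lower at a Benjamini-Hochberg adjusted p under 0.05 (0% in each direction), and 121 had an unadjusted p under 0.05, or 0.528%. DESeq2 on the same 15 libraries also called 0 genes, with 103 at an unadjusted p under 0.05. The smallest adjusted p of the edgeR fit was 1.00. Among the 12008 genes averaging 10 CPM or more, the median size of the log2 fold change was 0.0592, and 0 estimates were beyond 2-fold. The 95% interval of the difference lay within 2-fold for 99.4% of these genes and within 1.5-fold for 90.2%. Over all 22922 genes, with the rare ones, the interval lay within 2-fold for 75.2%. The test was conservative: evenly spread p-values would put a share of 0.05 under 0.05, far more than 0.528%. Its spread was shared by all 5 groups, with a biological coefficient of variation (edgeR's common spread between libraries) of 0.180. In the fit of the 6 libraries alone it was 0.0966, and 2.47% of genes had an unadjusted p under 0.05. The source of the wider spread was not tested.

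**Figure D2:**
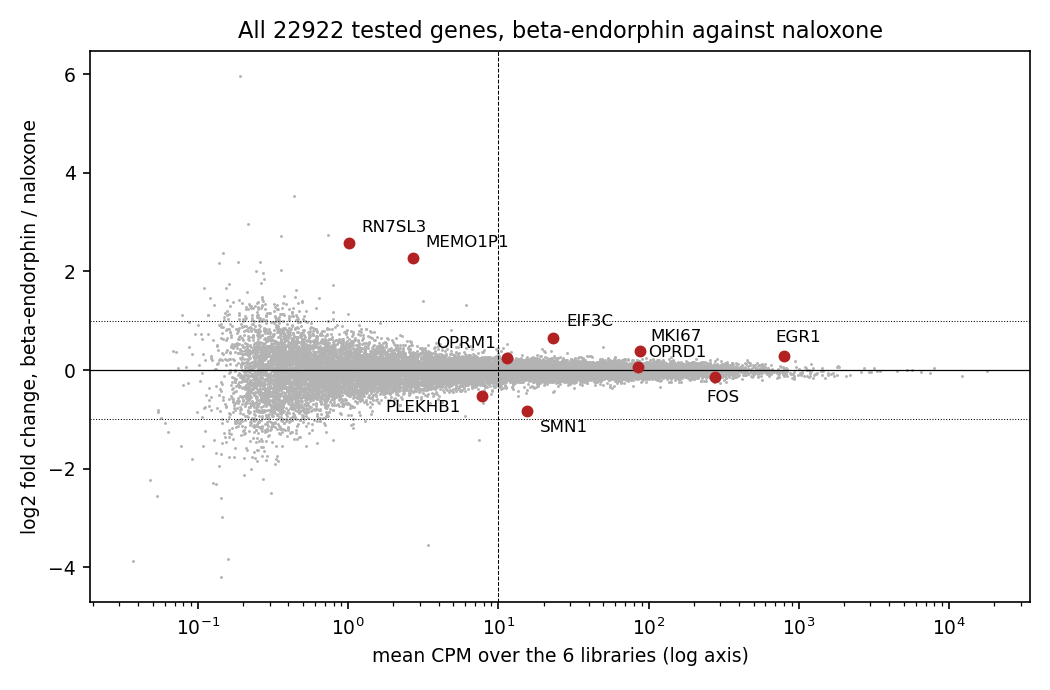
Log2 fold change (beta-endorphin over naloxone, 15-library edgeR fit) against the mean CPM of the 6 libraries on a log axis, 1 point for each of 22922 genes. Dotted lines mark 2-fold, the dashed line marks 10 CPM, and red points are genes described in the text. To the right of the dashed line no point lies beyond the dotted lines.

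The receptors that both ligands bind were expressed in both groups and did not differ beyond the spread between libraries. OPRD1, the delta opioid receptor gene (chromosome 1, 28812142 to 28871267, plus strand, GRCh38), was at 68.4, 112 and 74.0 CPM with beta-endorphin and 76.2, 122 and 56.3 CPM with naloxone, in the order A, B, C. Its groups overlapped, it was highest in code B under either ligand, and the log2 fold change was 0.06 (95% interval -0.45 to 0.58, edgeR). OPRM1, the mu opioid receptor gene (chromosome 6, 154010496 to 154246867, plus strand), was at 12.02, 16.01 and 8.27 CPM with beta-endorphin and 10.8, 16.2 and 5.52 CPM with naloxone. It too was highest in code B, and its log2 fold change of 0.25 (interval -0.31 to 0.80) came mainly from code C, where the difference was 0.58 against 0.16 in A and -0.02 in B. The nociceptin receptor OPRL1 was at 13.8, 20.045 and 21.1 CPM against 16.7, 17.2 and 18.6 CPM (log2 fold change 0.05, interval -0.24 to 0.34). The kappa receptor gene OPRK1 had 0 to 4 reads in a library and could not be tested. The opioid growth factor receptor OGFR had an estimate of -0.05, and over the receptor list 3 of 5 tested members had positive and 2 negative estimates, beside 46.9% positive over all tested genes.

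Opioid peptide genes were nearly silent. POMC, which encodes beta-endorphin itself, had 1, 3 and 1 reads with beta-endorphin and 4 in each naloxone library. The enkephalin and dynorphin precursor genes PENK and PDYN had 0 reads in all 6, which allows up to 0.134 CPM in the shallowest library (3 counts of its total, counting error only). The added peptide is not RNA and leaves no reads of its own. Among 11 tested genes of peptide processing and breakdown, 3 estimates were positive and 8 negative with a median of -0.03, and none passed. The smallest unadjusted p of the list, 0.119 (edgeR), belonged to PCSK2, a prohormone convertase. It was at 1.66, 0.849 and 0.652 CPM with beta-endorphin and 0.976, 0.410 and 0.645 CPM with naloxone, higher in A and B by 0.72 and 0.93 and level in C (0.01), with overlapping groups (log2 fold change 0.61, SE 0.37). Carboxypeptidase E (CPE), which trims prohormone fragments, was at 88.2, 119 and 133 CPM against 115, 124 and 146 CPM, lower with beta-endorphin in each code, as were 10.9% of all tested genes, but with overlapping groups (log2 fold change -0.20, SE 0.14).

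The 4 genes of the study's title stood at the limit of detection here. CACNA1F, a calcium channel subunit, had 0, 1 and 0 reads with beta-endorphin and 4, 5 and 0 with naloxone, and was too rare to test. RASAL1, a Ras GTPase-activating protein, had 2, 4 and 2 reads against 15, 7 and 0, and GARIN4 had 1, 2 and 1 against 0, 12 and 5. TRIM56, a ubiquitin ligase, had 1, 2 and 4 reads with beta-endorphin and 24, 5 and 6 with naloxone, so its groups did not overlap, which held in this direction for 1.27% of all tested genes. No title gene passed, with unadjusted p of 0.397 for RASAL1, 0.110 for GARIN4 and 0.150 for TRIM56 (edgeR, 15 libraries). In the 6 libraries alone none of these genes passed the low-count filter, so they were tested only with the other groups present. Their highest levels were in Control libraries: 2.51 CPM of RASAL1 and 4.70 CPM of TRIM56 in Control 1, and 1.12 CPM of GARIN4 in Control 2. In Control 2 and Control 3, RASAL1 was at 0.540 and 0.0443 CPM and TRIM56 at 0.720 and 0 CPM. These p-values therefore say little about beta-endorphin against naloxone. The naloxone libraries of codes A and B also held more stray reads: 3647 protein-coding genes with a median of 0 reads over the series summed to 471, 513 and 364 reads with beta-endorphin and to 3074, 1495 and 331 with naloxone (exact permutation test over 3 against 3 libraries, two-sided p = 0.4, the smallest possible being 0.1). Control 1 held 20888 such reads, Control 2 held 906 and Control 3 held 277. The part of such reads in the title genes' values, in the Control libraries too, was not tested.

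Immediate early genes, which respond to receptor signalling within minutes, had estimates of both signs and none passed. Of 33 tested members 15 had positive and 18 negative estimates, with a median log2 fold change of -0.009, equal to the median of all tested genes to that digit, and the list medians within codes A, B and C were -0.02, -0.01 and -0.03. EGR1 is a zinc finger factor induced through serum response elements, and it is shown with its promoter because matches to such elements are readable there. The 250 bases before its RefSeq start site (GRCh38.p14, chr5:138465229-138465478, plus strand) are printed with CArG boxes, the serum response factor's motif, and cyclic AMP response element core sites (CGTCA, or TGACG on the other strand) in capitals:
EGR1: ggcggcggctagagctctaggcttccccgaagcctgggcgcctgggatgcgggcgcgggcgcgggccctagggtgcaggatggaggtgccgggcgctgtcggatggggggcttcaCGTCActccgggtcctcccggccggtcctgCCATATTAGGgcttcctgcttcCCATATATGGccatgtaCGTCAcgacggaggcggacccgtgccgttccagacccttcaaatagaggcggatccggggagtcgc
The window held 2 CArG boxes and 2 core sites, none overlapping another. Of 34943 RefSeq windows of this length, 1.16% held at least 1 CArG box and 0.0315% at least 2, while 21.2% held at least 1 core site. Of 28 early response genes with a listed window, 3 had a CArG box and 18 a core site, so EGR1 does not stand for the list. These are matches of letters and not measured sites.

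EGR1 was at 697, 1060 and 836 CPM with beta-endorphin and 494, 954 and 717 CPM with naloxone. It was higher with beta-endorphin in each of the 3 codes, by 0.49, 0.15 and 0.22, as were 10.3% of all tested genes in each code, but the groups overlapped and the 15-library estimate of 0.28 (SE 0.28) had an interval of -0.31 to 0.88. With the 6 libraries alone the estimate was 0.30 (SE 0.13) with an unadjusted p of 0.0248 and an adjusted p of 1.00 (edgeR). EGR2, a relative of EGR1, was at 2.48, 3.19 and 3.22 CPM against 1.62, 3.02 and 1.86 CPM and was likewise higher in each code (log2 fold change 0.49, SE 0.31). FOS, a subunit of the AP-1 factor, was at 158, 299 and 335 CPM with beta-endorphin and 168, 357 and 341 CPM with naloxone (log2 fold change -0.14, SE 0.28), and the sign of its estimate turned without Naloxone 2 (0.10). NR4A1, an orphan nuclear receptor, was at 32.8, 45.6 and 30.9 CPM against 33.1, 53.4 and 24.5 CPM, with a log2 fold change of 0.02 (interval -0.46 to 0.50). FOSL1, a partner of JUN, was at 0.645, 0.467 and 0.204 CPM with beta-endorphin and 0.741, 0.784 and 1.04 CPM with naloxone, without overlap (log2 fold change -1.04, SE 0.48, unadjusted p = 0.0485, edgeR). It was the only 1 of the 33 with an unadjusted p under 0.05, beside 0.528% of all tested genes. Groups without overlap in this direction were found for 1.27% of all tested genes. FOSL1 was rare, with 19, 11 and 5 reads with beta-endorphin and 22, 21 and 29 with naloxone. Genes that damp the MAP kinase cascade, the DUSP phosphatases and the SPRY and SPRED inhibitors, were split 9 positive to 7 negative with a median of 0.05, and DUSP6 (-0.04) and SPRY4 (0.05) had estimates close to 0.

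No member of the lists for the machinery downstream of the receptors passed. Of 24 G protein subunit genes 14 had positive estimates, with a median of 0.02. GNAO1, which encodes the neuronal inhibitory alpha subunit, was at 74.8, 58.2 and 50.4 CPM against 64.2, 59.2 and 39.1 CPM (0.19, SE 0.14). Of 20 RGS, receptor kinase and arrestin genes 9 were positive, median -0.009. Of 29 cyclic AMP and protein kinase A genes 14 were positive, with a median of -0.0004 and with adenylyl cyclase ADCY1 at 0.15 (SE 0.23). Potassium channels were positive in 14 of 23, median 0.06. Calcium channel and store genes were positive in 13 of 27, median -0.01, with the auxiliary subunit CACNB2 at 8.11, 9.98 and 6.35 CPM against 6.03, 9.33 and 4.34 CPM (0.34, SE 0.18, unadjusted p = 0.0747, edgeR). It was higher with beta-endorphin in each code, with overlapping groups. The medians of 4 of these lists had opposite signs in codes A and C: they were 0.17 and -0.07 for the G protein subunits, 0.08 and -0.07 for the RGS, kinase and arrestin genes, -0.02 and 0.24 for the potassium channels, and -0.16 and 0.23 for the calcium genes, of which 23 of 27 were lower with beta-endorphin in A and 6 in C.

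**Figure D3:**
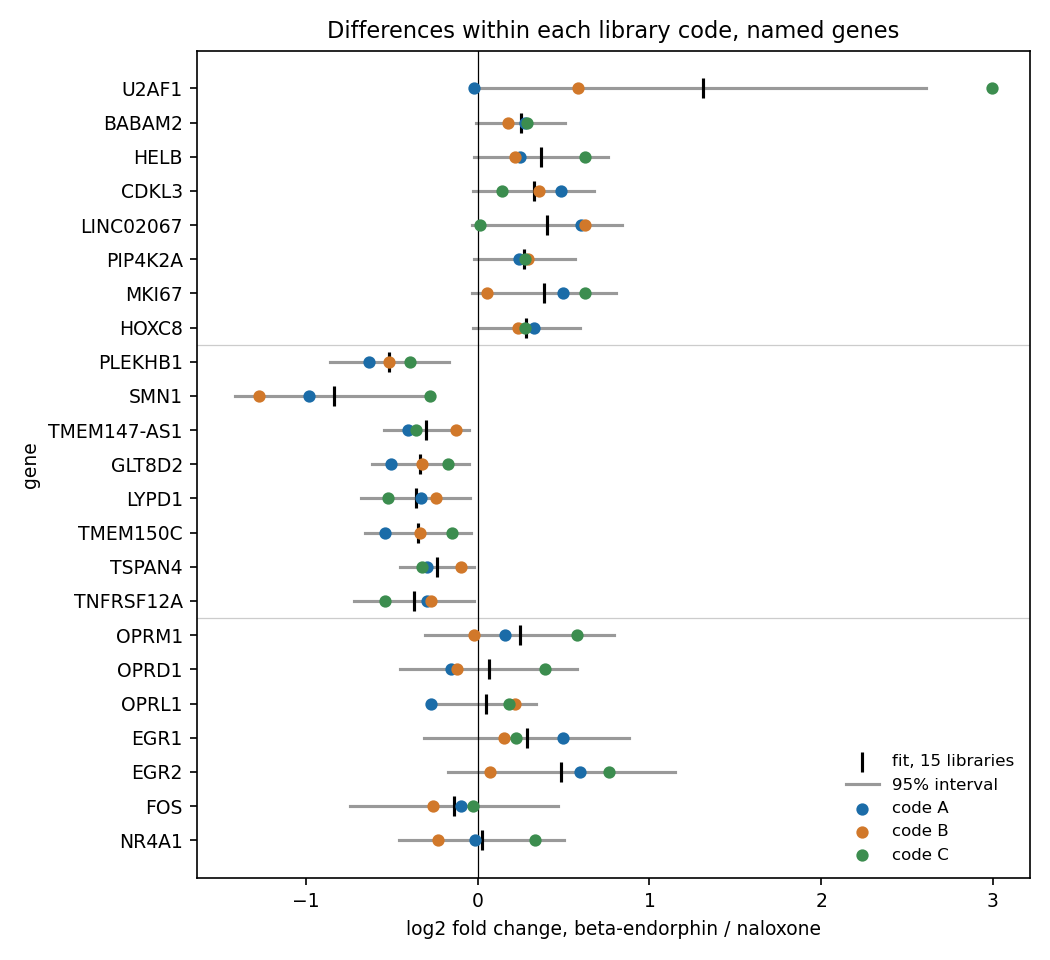
Log2 fold change of beta-endorphin over naloxone for the 8 genes with the smallest p in each direction and for opioid receptor and early response genes. Coloured points are the differences within codes A, B and C, black ticks the 15-library estimates and grey bars their 95% intervals. The points of PIP4K2A, HOXC8 and BABAM2 lie close together, while U2AF1 rests on code C.

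Genes with a symbol, coding for protein or long noncoding RNA and with at least 5 CPM, were ranked by p, and the 8 smallest in each direction are given as values since none passed. Those with positive estimates were U2AF1, BABAM2, HELB, CDKL3, LINC02067, PIP4K2A, MKI67 and HOXC8, with unadjusted p from 0.0482 to 0.0724 (edgeR). PIP4K2A, a phosphoinositide kinase, was at 17.2, 16.8 and 22.2 CPM with beta-endorphin and 14.5, 13.7 and 18.4 CPM with naloxone (log2 fold change 0.27, SE 0.14). It differed by 0.24, 0.29 and 0.27 in the 3 codes. HOXC8, a homeobox factor of trunk identity, was at 10.4, 9.51 and 12.7 CPM against 8.28, 8.06 and 10.5 CPM, again by like amounts in each code (0.33, 0.24 and 0.27). A ranking by p favours genes whose differences are alike in the codes. Over the 12008 genes of at least 10 CPM, the differences correlated at 0.0171 between A and B, -0.226 between A and C and -0.109 between B and C. MKI67, the proliferation marker Ki-67, was at 122, 98.1 and 74.2 CPM against 86.7, 94.5 and 48.1 CPM (log2 fold change 0.39, SE 0.20). Its differences were 0.50 in A, 0.05 in B and 0.62 in C, and in the fit of the 6 libraries alone its unadjusted p was 0.00019 and its adjusted p 0.507 (edgeR).

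Those with negative estimates were PLEKHB1, SMN1, TMEM147-AS1, GLT8D2, LYPD1, TMEM150C, TSPAN4 and TNFRSF12A, with unadjusted p from 0.0065 to 0.0380. PLEKHB1, a pleckstrin homology domain protein (chromosome 11, 73646178 to 73662819, plus strand), was at 6.18, 5.22 and 7.74 CPM with beta-endorphin and 9.63, 7.501 and 10.2 CPM with naloxone. It was lower with beta-endorphin in each code, by 0.63, 0.52 and 0.39 on the log2 scale, though Naloxone 2 lay under Beta-endorphin 3 (log2 fold change -0.52, SE 0.16). LYPD1, a modulator of nicotinic receptors, was at 10.0, 10.0 and 9.37 CPM against 12.7, 11.9 and 13.5 CPM without overlap (-0.36, SE 0.15). The tetraspanin TSPAN4 was at 32.8, 34.6 and 31.4 CPM against 40.2, 37.0 and 39.3 CPM, also without overlap (-0.24, SE 0.10). Over all tested genes, every beta-endorphin library lay above every naloxone library for 256 genes (1.12%) and under it for 291 genes (1.27%).

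When the 6 libraries were fitted without the other groups, keeping the code as a block, 4 of 21346 genes passed: 3 were higher with beta-endorphin (0.0141%) and 1 was lower (0.00468%), with 528 at an unadjusted p under 0.05. The 4 genes, named after their values were seen, were MEMO1P1, RN7SL3, EIF3C and SMN1, and each has a near-identical copy elsewhere in the genome. More than 50% of the 31-base words of each gene's longest transcript recurred in a transcript of another gene (73.2% in MEMO1P1, 72.9% in RN7SL3, 53.1% in EIF3C and 98.0% in SMN1), which held for 15.0% of 22905 tested genes. How the authors counted reads that match several places is not given in the sources used here, so the split of reads between copies is uncertain. This limit also touches 3 other genes ranked by p above: U2AF1 (98.5% of words shared), LYPD1 (61.8%) and CDKL3 (54.0%).

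SMN1 and SMN2 encode the survival motor neuron protein from a duplicated region of chromosome 5 (SMN1 at 70925030 to 70953942, SMN2 at 70049612 to 70078522, both plus strand). Their GENCODE 29 coding sequences, 885 bases each, differed at 1 position, C840T, counted from 1 at the start codon's first base, with SMN1's base first. The 29 bases around it are shown because they are all that tells the coding reads of the copies apart, with the differing base in capitals:
SMN1: tattatatgggtttCagacaaaatcaaaa
SMN2: tattatatgggtttTagacaaaatcaaaa
The longest stretch without a difference was 839 bases, beside a read length of 150. SMN1 was at 12.3, 7.56 and 13.8 CPM with beta-endorphin and 24.3, 18.4 and 16.7 CPM with naloxone, so that all 3 beta-endorphin libraries lay under all 3 naloxone libraries (2-group log2 fold change -0.83, adjusted p = 0.0021, edgeR). SMN2 was at 10.3, 10.3 and 10.8 CPM against 8.59, 8.84 and 15.1 CPM, with overlap and an estimate of 0.00 (SE 0.18, 15 libraries). With the reads of both summed, the levels were 22.6, 17.8 and 24.6 CPM against 32.9, 27.2 and 31.8 CPM, still without overlap. The difference of -0.50 no longer passed in the 2-group fit (adjusted p = 0.142, edgeR). In the 15-library fit SMN1 was at -0.84 (SE 0.27) with an unadjusted p of 0.00741. The sum was at -0.51 (SE 0.14) in that fit, with an unadjusted p of 0.0023 (edgeR), and neither passed. Without code B the call on SMN1 was lost, and it held without A or without C.

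EIF3C and EIF3CL encode subunit c of translation initiation factor 3 from chromosome 16 (EIF3C at 28688558 to 28735730, plus strand, EIF3CL at 28379579 to 28403879, minus strand), and their coding sequences were 99.9% identical. EIF3C was at 26.9, 34.4 and 23.1 CPM with beta-endorphin and 20.3, 19.4 and 15.3 CPM with naloxone, without overlap (2-group log2 fold change 0.61, adjusted p = 0.0021, edgeR). EIF3CL was at 6.65, 5.78 and 4.03 CPM against 4.34, 4.03 and 5.38 CPM, with overlap. The summed copies were at 33.6, 40.2 and 27.2 CPM against 24.7, 23.5 and 20.7 CPM (0.55, adjusted p = 0.0496 in the 2-group fit and 1.0 in the 15-library fit, edgeR). In the other groups EIF3C ran from 13.6 CPM in Morphine 2 to 107 CPM in Morphine 1, a wider range than between beta-endorphin and naloxone. The call was lost without code B and held without A or C.

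RN7SL3 is a copy of 7SL RNA, the RNA of the signal recognition particle (chromosome 14, 49853616 to 49853914, minus strand). Its transcript is 97.7% identical to that of RN7SL1. RN7SL3 had 44, 16 and 70 reads with beta-endorphin and 11, 3 and 15 with naloxone (2-group log2 fold change 2.28, adjusted p = 0.0016, edgeR). RN7SL1 was at 13.2, 8.66 and 19.7 CPM against 11.8, 11.6 and 22.2 CPM, and the sum of RN7SL1, RN7SL2 and RN7SL3 differed by -0.08 (95% interval -0.29 to 0.12). RN7SL3 reached 11.7 CPM in Control 2 and 11.5 CPM in Metamorphine 2, above every beta-endorphin library. Its call was lost without code C.

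MEMO1P1 is a processed pseudogene of MEMO1, a regulator of cell motility (pseudogene on chromosome 21, 36130489 to 36131376, plus strand), and matched MEMO1 at 98.5% of 894 aligned positions. It had 182, 22 and 157 reads with beta-endorphin and 22, 13 and 40 with naloxone, which is a difference of 2.93 in A, 0.85 in B and 2.10 in C (2-group log2 fold change 2.27, adjusted p = 5.03e-07, edgeR). It was high in Beta-endorphin 1 and 3 and not in Beta-endorphin 2, at 6.18, 6.39 and 0.934 CPM, and the groups overlapped. Control 3 at 5.67 CPM and Metamorphine 3 at 5.48 CPM were nearly as high as Beta-endorphin 1 and 3. MEMO1 itself was at 39.7, 36.4 and 45.3 CPM against 38.4, 35.9 and 52.7 CPM, and the 2 summed differed by 0.08 (95% interval -0.12 to 0.27). MEMO1P1 also had the smallest p of the 15-library fit, 0.000299, with an adjusted p of 1.00, and its call held in the 2-group fit without any 1 of the 3 codes.

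**Figure D4:**
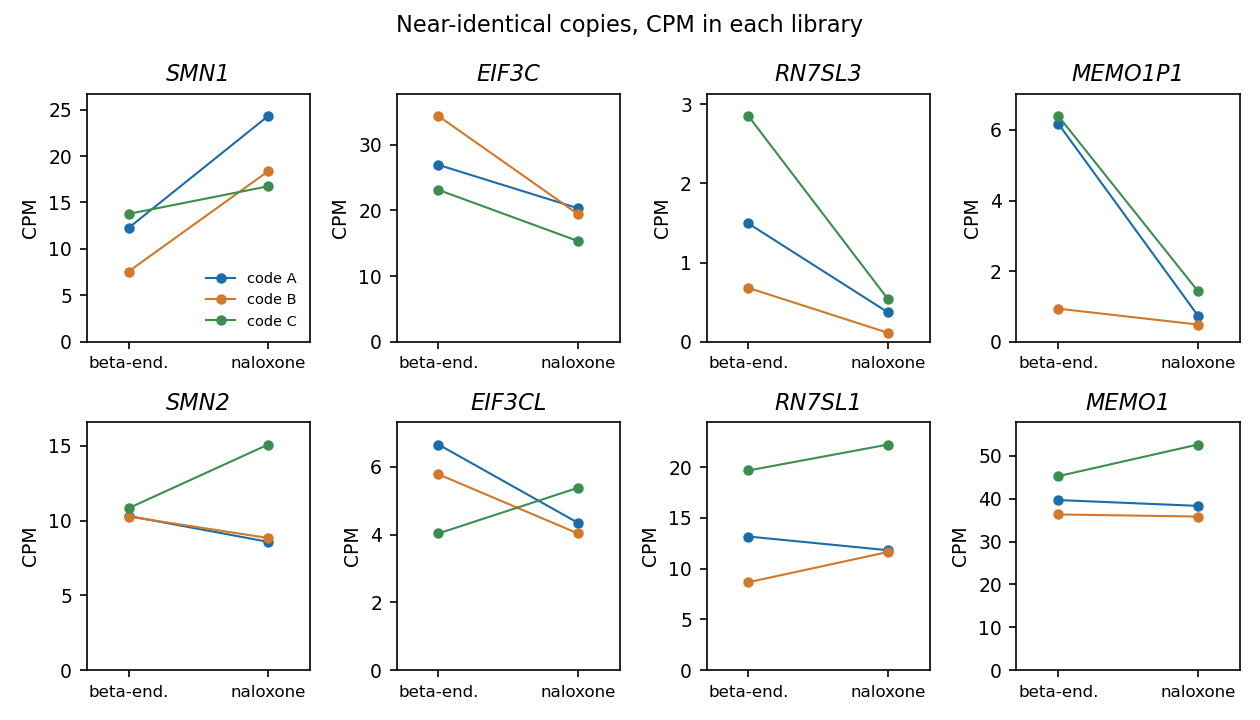
CPM in each library for the 4 genes called when the 6 libraries were fitted alone (upper row) and a near-identical copy of each (lower row), with lines joining the beta-endorphin and naloxone libraries of a code. In the upper row the 3 lines of a gene run the same way; in the lower row those of SMN2, EIF3CL, RN7SL1 and MEMO1 run both ways.

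Sterol synthesis genes had estimates that were small and mostly negative. They were negative for 23 of 24 tested members with a median of -0.09, beside 12175 of all 22922 tested genes and a median of -0.009, and the list medians were -0.09 in A, -0.11 in B and -0.11 in C. None passed, and the lowest estimate was -0.19. SQLE, which makes the first oxygenated sterol precursor, was at 68.9, 51.4 and 49.1 CPM against 74.7, 58.9 and 54.5 CPM (-0.15, SE 0.11), lower in each code. SC5D, a late desaturase of the pathway, was at 23.3, 25.8 and 26.4 CPM against 28.9, 27.4 and 28.6 CPM, without overlap (-0.17, SE 0.12). The feedback regulator INSIG1 was at 85.6, 64.6 and 66.8 CPM against 96.0, 76.7 and 65.3 CPM, so that it was lower in A and B only.

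The promoters of 2 members are shown because sterol genes are controlled together through SREBP factors that act beside NF-Y, whose motif is the CCAAT box (CCAAT, or ATTGG on the other strand, in capitals). The 250 bases before the RefSeq start (GRCh38.p14) of INSIG1 are chr7:155297628-155297877 on the plus strand and those of HMGCS1, which makes the pathway's first committed precursor, chr5:43313413-43313662 on the minus strand. HMGCS1 has 2 listed starts, and the window before the other (43313182 to 43313431) held 0 CCAAT boxes:
INSIG1: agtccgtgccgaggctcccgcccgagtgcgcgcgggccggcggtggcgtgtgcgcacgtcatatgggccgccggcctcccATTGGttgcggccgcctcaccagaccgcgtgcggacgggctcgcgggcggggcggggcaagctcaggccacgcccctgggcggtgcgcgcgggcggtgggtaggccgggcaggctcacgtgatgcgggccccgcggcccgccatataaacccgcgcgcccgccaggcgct
HMGCS1: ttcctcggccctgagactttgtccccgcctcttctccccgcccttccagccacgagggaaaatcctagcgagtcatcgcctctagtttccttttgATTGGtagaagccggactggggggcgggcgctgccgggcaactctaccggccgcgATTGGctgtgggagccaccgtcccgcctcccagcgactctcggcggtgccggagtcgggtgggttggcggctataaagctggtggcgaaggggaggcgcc
At least 1 CCAAT box was found in 18 of the 25 windows listed for 19 sterol genes, and in 32.0% of all 34943 windows. Counted by gene, 16 of the 19 had a box in at least 1 of their windows. These too are matches of letters and not measured sites, and SREBP sites were not searched for. Whether the boxes bear on the estimates of the list was not tested. HMGCS1 was at 141, 70.7 and 76.1 CPM with beta-endorphin and 126, 78.5 and 88.7 CPM with naloxone, higher in A and lower in B and C.

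Lists of mitochondrial, ribosomal and respiratory chain genes changed sign with the code. The 13 mRNAs of the mitochondrial genome had a median of -0.80 in A, -0.04 in B and 0.76 in C, and of -0.02 over the fit. Mitochondrial reads were 6.15%, 10.5% and 7.36% of the total with beta-endorphin and 10.1%, 10.8% and 4.66% with naloxone (exact permutation test, two-sided p = 0.9). MT-ND3, a subunit of complex I, differed by -0.71 in A and by 0.36 in C. The 77 cytosolic ribosomal protein genes were negative in 61 of 77 estimates, with a median of -0.05, but the medians were 0.11 in A, 0.07 in B and -0.27 in C, where all 77 were lower with beta-endorphin. RPLP0, a stalk protein of the large subunit, was at 1116, 704 and 1449 CPM against 1114, 648 and 2005 CPM. The 50 nuclear respiratory chain genes had medians of 0.08, 0.03 and -0.25. The direction of these 3 lists therefore depended on the library pair.

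Cell cycle genes had positive estimates in 26 of 30 members with a median of 0.04, beside 46.9% positive over all tested genes. The list medians were 0.19 in A, 0.07 in B and -0.10 in C. Of the 30 members, 0 were lower with beta-endorphin in A, 10 in B and 21 in C. CCND1, a cyclin of the G1 phase, was at 1075, 1012 and 931 CPM with beta-endorphin and 930, 916 and 792 CPM with naloxone, without overlap (0.19, SE 0.12). Such a lack of overlap in this direction held for 1.12% of all tested genes. E2F2, a factor of S phase entry, was at 32.6, 20.6 and 19.8 CPM against 25.5, 16.6 and 19.4 CPM (0.23, SE 0.14). CDK1, the mitotic kinase, and MCM7, of the replicative helicase, had estimates of 0.00 and 0.01.

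Estimates of neuronal genes were mostly positive and small. They were positive for 22 of 30 cytoskeleton and growth cone genes (median 0.04) and 23 of 31 synaptic vesicle genes (median 0.06), and none passed. Over all tested genes 46.9% were positive. The medians in A, B and C were 0.12, 0.03 and 0.05 for the cytoskeleton list and 0.02, -0.005 and 0.15 for the synaptic list. Of the 31 synaptic genes, 14 were lower with beta-endorphin in A, 18 in B and 5 in C. DCX, a microtubule protein of young neurons, was at 177, 142 and 140 CPM against 144, 143 and 98.5 CPM (0.26, SE 0.18), higher in A and C and level in B (-0.01). Noradrenergic identity genes were split 14 positive to 15 negative (median -0.001). Retinoic acid receptors and targets were positive in 7 of 17 (median -0.03), with CYP26A1, the retinoic acid hydroxylase, at 250, 522 and 423 CPM against 331, 601 and 403 CPM.

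Interferon-stimulated genes had negative estimates in 15 of 20 members with a median of -0.15, and medians of -0.28, -0.08 and 0.05 in A, B and C. Over all tested genes 12175 of 22922 estimates were negative. IFI6, a mitochondrial protein of this set, was at 37.1, 38.7 and 69.7 CPM with beta-endorphin and 62.6, 40.9 and 82.5 CPM with naloxone, lower in each code (-0.34, SE 0.20). The antiviral GTPase MX1 was at 0.238, 0.255 and 0.163 CPM against 0.438, 0.560 and 0.466 CPM, without overlap, whereas IFI35 was higher with beta-endorphin at 0.305, 0.722 and 0.407 CPM against 0.135, 0.187 and 0.251 CPM. Both are at the level of a few reads per library. Markers of epithelium were negative in 8 of 10 with a median of -0.11, and summed to 18.5 to 32.6 CPM with beta-endorphin and 15.3 to 33.3 CPM with naloxone.

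No member of the remaining lists passed either, and 46.9% of all tested genes had positive estimates. Replication-dependent histone genes were positive in 4 of 20 (median -0.14), heat shock and unfolded protein response genes in 7 of 32 (-0.04), and glycolysis and hypoxia genes in 9 of 28 (-0.03). The matrix and mesenchymal list was positive in 10 of 25 with a median of -0.05, and its medians of -0.42 in A and 0.15 in C had opposite signs. LUM, which encodes the matrix proteoglycan lumican, was at 36.4, 56.7 and 66.0 CPM with beta-endorphin and 54.7, 58.9 and 82.9 CPM with naloxone, lower in each code (-0.31, SE 0.19). Neurotrophin, GDNF and ALK receptor genes were positive in 7 of 18 (median -0.02), sodium channels in 6 of 10 (0.04) and long noncoding RNAs in 9 of 14 (0.06). The receptor genes had medians of -0.26 in A and 0.21 in C, and the sodium channels -0.17 and 0.17, with 8 of 10 lower in A and 0 in C. The histone medians were 0.03 in A and -0.28 in C, and those of glycolysis and hypoxia 0.06 and -0.13. Among markers of other cell types, 2 of 6 for immune cells, 4 of 10 for glia, 1 of 2 for endothelium and 1 of 3 for muscle and germ cells had positive estimates.

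**Figure D5:**
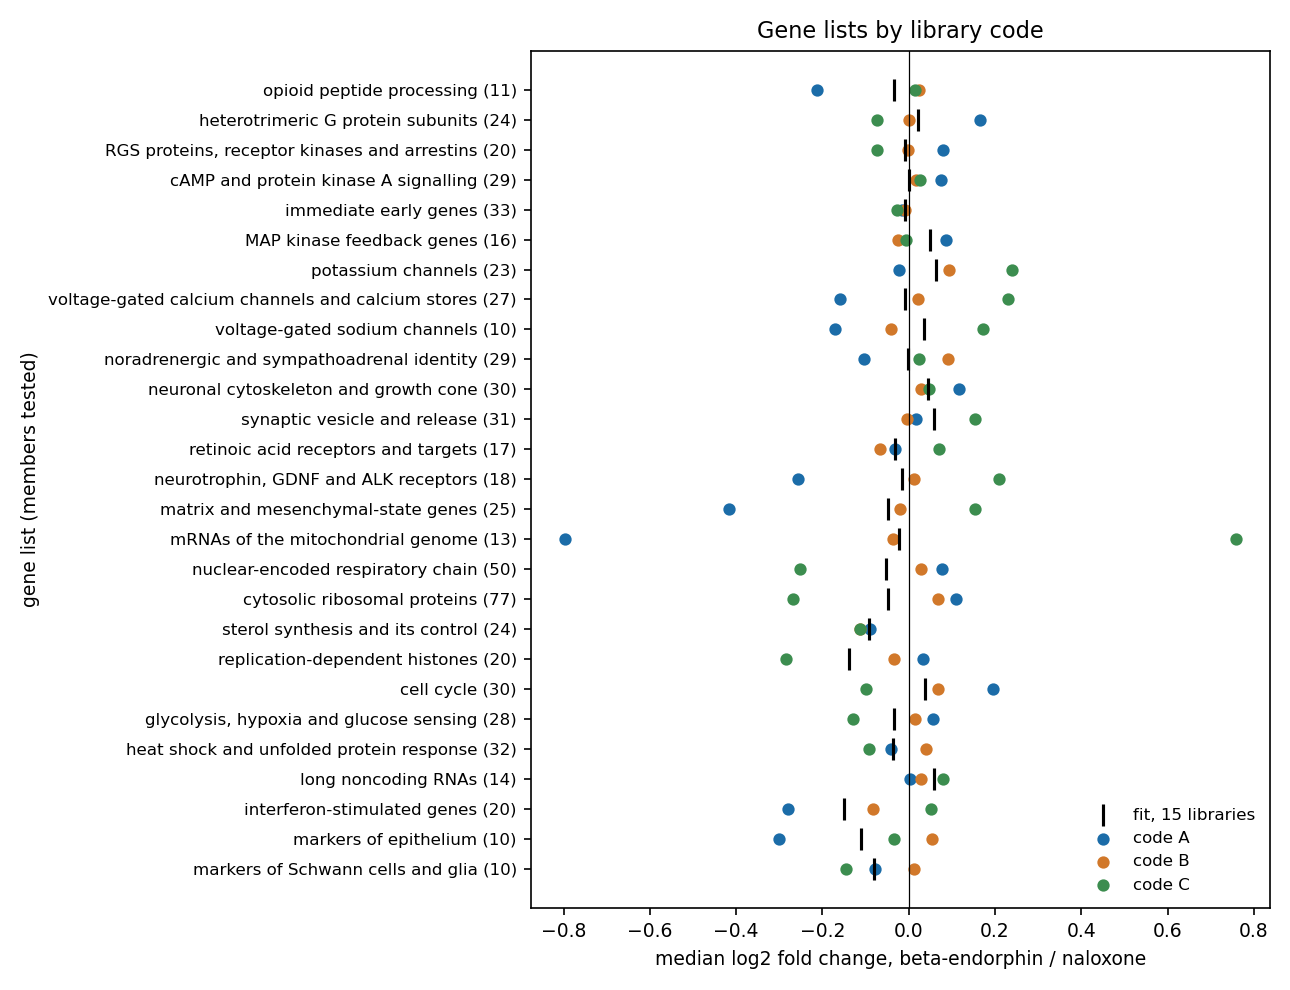
Median log2 fold change of beta-endorphin over naloxone for gene lists with at least 10 tested members, within codes A, B and C (coloured points) and in the 15-library fit (black ticks). Sterol synthesis is near -0.1 in all 3 codes, while mitochondrial mRNAs run from -0.80 in A to 0.76 in C.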

How the data were processed

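TRIzol RNA, treated with DNase I, was made into unstranded libraries and read as 150 bp pairs, per the labels' protocols. The authors deposited raw counts for each Ensembl gene. HISAT2, featureCounts, FastQC, DESeq2 and the GRCh38 (hg38) build are named in the submitters' processing notes, and their versions, settings and annotation were not given in the sources used here. All 58735 gene IDs were in GENCODE 29. Without strand, overlapping antisense genes cannot be told apart.

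Counts were fitted with edgeR 4.0.16 in R 4.3.3: filterByExpr with a minimum count of 10, TMM scaling, and the robust quasi-likelihood test over 15 libraries of 5 groups, with library code as a block, since the comparison is defined by code. TRV130, whose codes do not match, was left out. Standard errors were the fold change divided by the root of F. P-values are two-sided with Benjamini-Hochberg adjustment over all genes. Differences within a code use log2 CPM with a prior count of 2. Codes paired the samples clearly in B and C and less so in A: deviations from group means correlated at 0.464 in A, 0.930 in B and 0.934 in C. Between codes the correlations ran from -0.896 to 0.377, the highest being that of Beta-endorphin 2 with Naloxone 1. Alternatives were fits without the block, of 2 groups, of 18 libraries, RLE scaling, other filters, DESeq2 1.42.0, limma 3.58.1 voom, and each library left out. Copies were aligned with Biopython.

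The 32 gene lists and the members were chosen with earlier results of these data known. Genes were named as the 8 smallest p in each direction, a fixed set of receptor, peptide, title and early response genes, and up to 4 per list by smallest p. Further list members, the 4 genes called with 2 groups, and their copies were named after their values were seen. Most of the list members picked by this rule are covered only by the counts and medians of their lists.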

Additional observations from a re-analysis of the deposited data

How the results depend on the processing

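The count of 0 genes in either direction held under edgeR without the replicate block (0 and 0, with 45 at an unadjusted p under 0.05), with 18 libraries with or without the block, without Control 1 (313 under 0.05), without all Control libraries (303), with RLE scaling, with genes of at least 5 CPM, with DESeq2 (smallest adjusted p 0.0598), with voom (742 under 0.05), with each of the 6 libraries left out in turn (0 to 0), and with the 6 libraries without the block (42). With the block and the 6 libraries alone it became 3 higher and 1 lower. Without the low-count filter it became 6 higher and 3 lower. In fits chosen after seeing the data, DESeq2 on the 6 libraries called 1 higher (MEMO1P1) and 0 lower, and leaving a code out of the 6-library fit called 8 higher and 4 lower (without A), 9 and 4 (without B) or 4 and 6 (without C). The cause was not tested. The calls of all these settings named 30 genes, of which 24 shared more than 50% of their 31-base words with another gene. Of the estimates of 28 named genes, 574 of 590 kept their sign. Many of these genes were picked by their small p in the same libraries, and the fits share most libraries. The sign count is therefore not an independent check. The median half-width of the 95% interval was 0.43 on the log2 scale over all tested genes and 0.32 over those of at least 10 CPM.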

Other observations

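Genes called without the low-count filter beyond those described included some that rested on 1 library. XAGE1B, a cancer-testis antigen gene, was at 0.441, 0.0850 and 0.855 CPM with beta-endorphin and at 17.9, 0.522 and 0.753 CPM with naloxone, so that Naloxone 1 alone was high. HCG4, a noncoding gene of the HLA region, had reads in Beta-endorphin 2 alone, at 1.15 CPM. U2AF1 and U2AF1L5, near-identical genes for a splicing factor subunit on chromosome 21, differed in opposite directions: U2AF1 was at 2.99, 8.32 and 14.8 CPM against 3.03, 5.52 and 1.79 CPM, and U2AF1L5 at 4.005, 4.93 and 2.77 CPM against 18.6, 4.74 and 9.61 CPM.

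SOCS3, a feedback inhibitor of cytokine signalling, was at 9.61, 13.5 and 17.3 CPM with beta-endorphin and 13.3, 17.8 and 21.9 CPM with naloxone, lower in each code with overlapping groups (log2 fold change -0.40, SE 0.20, unadjusted p = 0.0626, edgeR). B2M, the light chain of class I HLA, was at 37.9, 36.9 and 72.5 CPM against 49.9, 40.4 and 104 CPM, also lower in each code (-0.37, SE 0.21). Both were picked after their values were seen.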
